A study of Oryza sativa with 6 samples.

Results

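The genes described here differed between salt and control in nodal roots of rice and by less than the limit set below in either kind of lateral root. A gene was taken when the ratio of salt to control reached 2-fold in nodal roots in either direction, a log2 ratio of 1, and when the log2 ratio stayed under 0.5 in size in both S-type and L-type lateral roots. It also had to reach 50 scaled fragments in the higher library of each of the 3 pairs. Of 37942 gene models 13254 met that minimum, and they are called eligible below. The rule took 60 genes, of which 47 were higher under salt (the rises) and 13 were lower (the falls). Rises and falls are names for the direction chosen by the rule. Because the salt ratios of all 3 root types chose these genes, the ratios below are a description and carry no test.

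The libraries hold mRNA of Oryza sativa with the genotype label Mulai, taken from nodal roots and from S-type and L-type laterals of plants grown at 30°C by day and 25°C by night. Each root type was sampled under control conditions and after 7 days with 50 mM NaCl, the sodium salt that makes soils saline. Each of these 6 groups holds 1 library, so a difference between groups could not be set against a spread between plants, and 95% intervals cover counting error alone. The labels do not state how many plants went into a library, whether 1 plant gave more than 1 root type, or the hour of collection. The series names genes of lateral root development under salt as its aim.

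Nodal roots grow from the nodes of the rice stem and form the main axes of the adult root system. Lateral roots branch from them: S-type laterals are short, thin and unbranched, while L-type laterals are longer and thicker and branch again. Roots meet salt in the soil first, where sodium lowers the water potential around them and, once taken up, disturbs the balance of other ions. Uptake carriers, water channels, cell wall enzymes and protein-folding chaperones are among the root genes whose transcripts are known to depend on the ion and water supply.

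The nodal libraries held 7897875 fragments in genes under control and 7908373 under salt, the S-type libraries 6229661 and 8711710, and the L-type libraries 5620282 and 7194615. The deposited values are fragments multiplied by a factor for each library, and they are called scaled fragments. The secondary wall cellulose synthases CESA4 and CESA7, which mark xylem and fibres, summed to 4434 scaled fragments in nodal roots, 583 in L-type laterals and 93.9 in S-type laterals, all under control. The mitotic genes CYCB1;1 and CDKB2;1 summed to 1199.8 in the control library of nodal roots, to 1347 for L-type and to 438 for S-type. Both sums were lowest in S-type laterals. In bulk tissue, fewer cells of a type and less RNA per cell cannot be told apart.

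In nodal roots, 155 of the 13254 eligible genes (1.17%) were at least 2-fold higher under salt and 93 (0.702%) at least 2-fold lower. Both laterals stayed within the limit of 0.5 for 73.5% of all eligible genes, for 47 of the 155 (30.3%) and for 13 of the 93 (14.0%). The median log2 ratio of all eligible genes was -0.01 in nodal, -0.02 in S-type laterals and -0.002 in L-type laterals. The same limits with S-type roots in the place of nodal ones took 36 higher and 39 lower genes. With L-type roots in that place they took 34 higher and 175 lower genes. These counts come from pairs of single libraries and were not tested against each other.

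The rises were mostly weakly expressed in control nodal roots and more strongly expressed in lateral roots. The rule itself favours low control nodal values among rises, so the shares against nodal roots are not independent of it. For 23 of the 47 rises (48.9%) the control nodal value was under 50 scaled fragments. These met the nodal minimum through the salt library alone. Under control, 40 of the 47 rises (85.1%) were at least 2-fold higher in S-type than in nodal roots, against 18.7% of eligible genes. At least 8-fold higher were 25 of the 47 rises, against 219 of the 13254 eligible genes. In L-type roots 45 of the 47 were at least 2-fold above nodal roots, against 9.72% of eligible genes. Nodal roots had the lowest of the 3 control values for 45 of the 47, against 42.2% of eligible genes. The order S-type above L-type above nodal held for 36 rises (76.6%) and for 32.6% of eligible genes under control, and for 31 rises (66.0%) and 34.9% of eligible genes under salt.

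**Figure D1:**
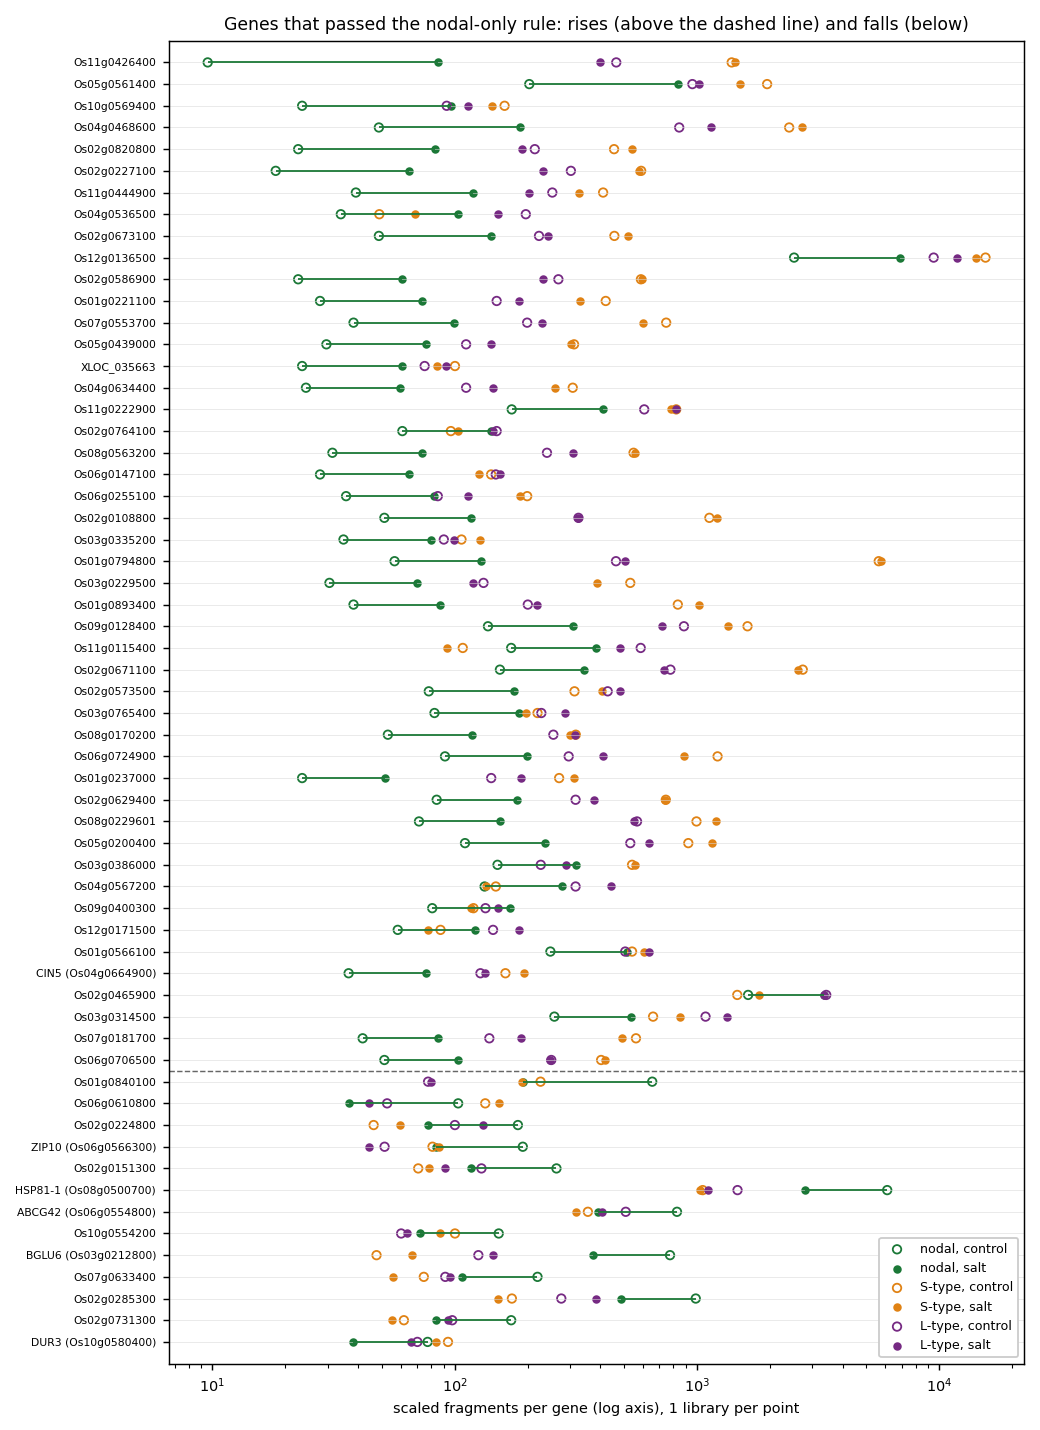
Scaled fragments (log axis) of the 47 rises above the dashed line and the 13 falls below it, with open circles for control and filled circles for salt, 1 library per point, and a line joining both nodal values. For most rises the line lies to the left of the lateral circles, and 37 of the 47 salt nodal values were still below both control lateral values. The matching share of eligible genes was not counted.

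The median of the rises was 51.3 scaled fragments in the control nodal library and 119 in the salt nodal library. In S-type roots the medians were 531 under control and 518 under salt, and in L-type laterals 251 and 248. The nodal value thus moved toward lateral levels without reaching them for most rises, and its upward direction was set by the rule. Under salt, nodal roots were still the lowest of the 3 root types for 39 of the 47, against 42.6% of eligible genes. The salt nodal value was above both control lateral values for 1 of the 47 rises, and the matching share of eligible genes was not counted.

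Both nodal libraries enter the rule, and so do the minimum and the limits in lateral roots, so the shares against nodal roots are not independent of the rule in either condition. With salt, 30 of the 47 rises were at least 2-fold higher in S-type than in nodal roots, against 15.3% of eligible genes. For L-type against nodal roots under salt it was 25 of the 47, against 3.4%. The median difference of S-type minus nodal roots was 3.13 on the log2 scale under control and 1.87 under salt, and that of L-type minus nodal was 2.17 and 1.05. Over all eligible genes these medians were 0.13 and 0.12 for S-type and 0.02 and 0.04 for L-type roots.

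The comparison of the lateral roots with each other uses no nodal library, although the minimum and the lateral limits of the rule use the lateral libraries. Under control, 21 of the 47 rises (44.7%) were at least 2-fold lower in L-type than in S-type laterals, against 8.61% of eligible genes, and 4 were at least 2-fold higher, against 8.65%. Under salt, 16 were lower, against 8.65%, and 4 were higher, against 7.26%. The rises thus leaned to S-type over L-type roots, with a median difference of -0.87 under control and -0.75 under salt. Over all eligible genes these medians were -0.09 and -0.07. The rule kept both lateral ratios under 0.5 in size, so the salt values largely repeat the control values and are no separate support.

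The largest ratio belonged to a gene with few fragments in control nodal roots and many in lateral roots. Os11g0426400 (chromosome 11, 13559877 to 13560971, build IRGSP-1.0 as for all positions here) held 9.56 scaled fragments in control and 85.4 in salt nodal roots, 1393 and 1437 in S-type laterals, and 465 and 397 in L-type laterals. Both nodal values lay below all 4 lateral values. The log2 ratio was 3.03 in nodal roots (interval 2.26 to 4.21), from 11 to 103 fragments. It was 0.05 in S-type laterals (-0.07 to 0.16) and -0.23 in L-type laterals (-0.43 to -0.02).

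Os05g0561400 (chromosome 5, 27935288 to 27939342) held 203 scaled fragments in control and 839 in salt nodal roots, 1951 and 1509 in S-type laterals, and 958 and 1021 in L-type laterals. The control nodal library was far below the other 5, and the salt nodal library came near the L-type values. Its nodal ratio was 2.04 (1.84 to 2.26), with -0.37 in S-type laterals and 0.09 in L-type laterals. An overlapping gene model, Os05g0561500, held up to 202 scaled fragments in a nodal library, so the split of fragments between both models is uncertain.

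Os10g0569400 (chromosome 10, 22575212 to 22576531) held 23.5 scaled fragments in control and 96.2 in salt nodal roots, 161 and 143 in S-type laterals, and 92.7 and 113 in L-type laterals. The salt nodal value lay among the L-type values. The nodal ratio was 1.99 (1.42 to 2.70), with -0.17 in S-type laterals and 0.28 in L-type laterals. Os04g0468600 (chromosome 4, 23408498 to 23410250) held 48.7 and 187 in nodal roots, 2406 and 2706 in S-type laterals, and 846 and 1142 in L-type laterals. Its nodal values stayed far below all lateral values, with a ratio of 1.92 (1.51 to 2.39) in nodal, 0.17 in S-type laterals and 0.43 in L-type laterals.

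Os02g0820800 (chromosome 2, 35242169 to 35243851) had a nodal ratio of 1.83, from 22.6 to 82.9 scaled fragments, beside 455 and 538 in S-type laterals and 214 and 190.4 in L-type laterals. Os02g0227100 (chromosome 2, 7126763 to 7133382) had 1.77, from 18.2 to 64.7, beside 589 and 577 in S-type laterals and 302 and 232 in L-type laterals. In both genes each nodal value was below every lateral value. An overlapping model, Os02g0227000, held up to 32.1 scaled fragments in a nodal library beside the second of them.

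Os11g0444900 (chromosome 11, 14704980 to 14714506) held 39.1 scaled fragments in control and 119 in salt nodal roots, 410.2 and 327 in S-type laterals, and 253 and 203 in L-type laterals. Both laterals were lower under salt while nodal roots were higher, the ratio being 1.59 in nodal roots, -0.33 in S-type laterals (-0.55 to -0.11) and -0.31 in L-type laterals (-0.60 to -0.03). Os04g0536500 (chromosome 4, 26804277 to 26806776) differed from most rises in being higher in L-type than in S-type laterals. It held 33.9 and 104 in nodal, 48.9 and 68.4 in S-type laterals and 197 and 151 in L-type laterals, and its nodal ratio was 1.59 (1.08 to 2.17).

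Os02g0673100 had a nodal ratio of 1.52, Os02g0586900 had 1.38 and Os01g0221100 had 1.36, and in each of them both nodal values lay below every lateral value. Os12g0136500 (chromosome 12, 1771371 to 1774727) was the most strongly expressed rise by scaled fragments. It held 2520.3 scaled fragments in control and 6905 in salt nodal roots, 15555 and 14205 in S-type laterals, and 9501 and 11862 in L-type laterals. Its nodal values lay below the lateral ones in both conditions, and the ratio was 1.45 (1.39 to 1.52) in nodal, -0.13 in S-type laterals and 0.32 in L-type laterals. The files and the reference table give no gene name for any of these 12 leading rises, so no role is stated for them.

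**Figure D2:**
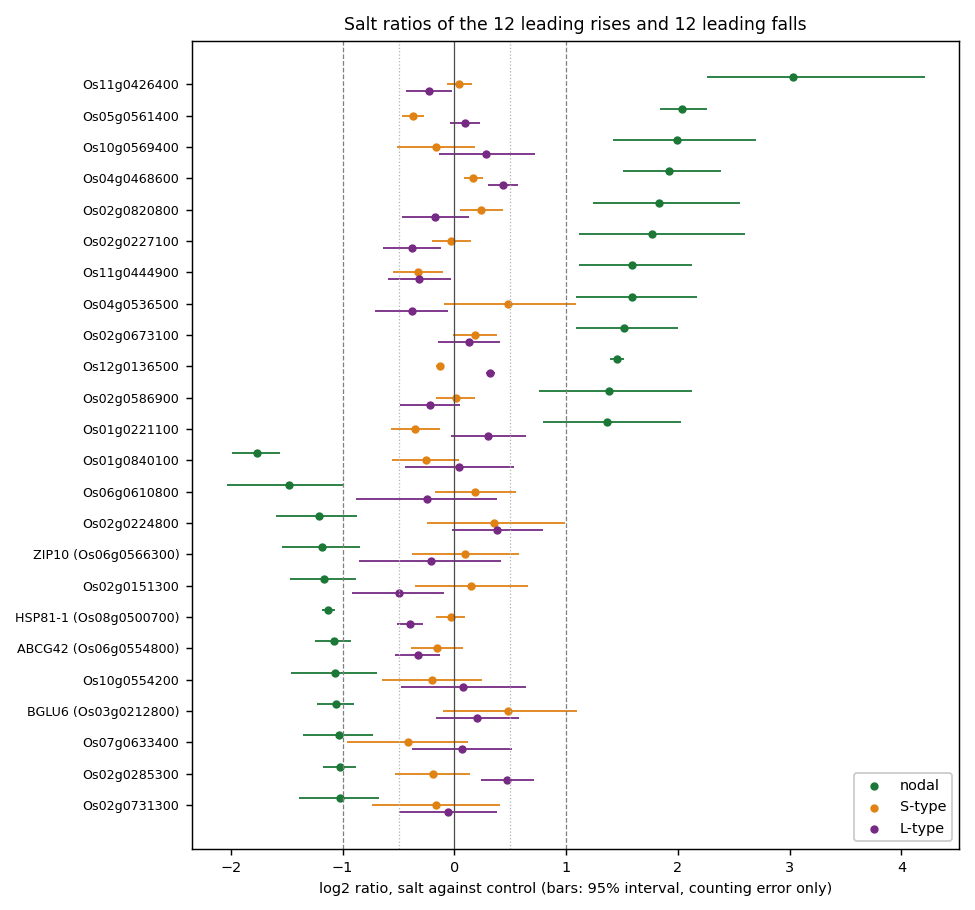
Log2 ratio of salt to control in nodal, S-type and L-type roots for the 12 rises and the 12 falls with the largest nodal ratio, with 95% intervals for counting error only. Dashed lines mark the nodal limit of 1 and dotted lines the lateral limit of 0.5. The nodal points run from 1.36 to 3.03 for the rises and from -1.77 to -1.02 for the falls, and several lateral intervals cross the dotted lines.

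A pair of rises, Os01g0794800 and Os11g0115400, was singled out after their values were seen, for their place among the root types. Os01g0794800 (chromosome 1, 33659782 to 33665168) held 56.5 scaled fragments in control and 129 in salt nodal roots, 5636 and 5747 in S-type laterals, and 464 and 506 in L-type laterals. It had the lowest value of L-type minus S-type among the rises, -3.60 on the log2 scale under control, and an overlapping model with up to 21.7 scaled fragments in a nodal library. Os11g0115400 (chromosome 11, 697467 to 703928) was the reverse, with 171 and 382 in nodal roots, 108 and 92.7 in S-type laterals, and 586 and 482 in L-type laterals. Its S-type values were the lowest of the 3 root types in both conditions, and L-type minus S-type was 2.43 under control. The rises at least 2-fold higher in L-type than in S-type laterals under control were this gene, Os04g0536500, Os04g0567200 (1.09) and Os02g0465900 (1.22).

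One rise has a checked gene name. CIN5 (Os04g0664900, chromosome 4, 33943922 to 33946513) encodes a cell wall invertase, an enzyme that splits sucrose outside the cell and so helps sink tissues draw sugar. It held 36.5 scaled fragments in control and 76.3 in salt nodal roots, 162 and 193 in S-type laterals, and 128 and 133 in L-type laterals. Its nodal values were below all lateral values, and its ratio was 1.04 (0.52 to 1.63), from 42 to 92 fragments. With a pseudocount of 5 the ratio was 0.97, short of the limit. CIN6 (Os04g0664800), another cell wall invertase, held 26.9 and 19.1 in nodal roots, too few for the rule. CIN1, a further cell wall invertase, held 204 and 266 in nodal roots, a ratio of 0.38 (0.14 to 0.63), with 0.20 in S-type laterals and 0.26 in L-type laterals.

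Per length, in the authors' FPKM (fragments scaled by transcript length and library size), the rises had a median of 5.15 in control and 14.0 in salt nodal roots, 43.3 and 40.7 in S-type laterals and 24.8 and 29.8 in L-type laterals. The 3 members with the highest level in control nodal roots were the fall HSP81-1, described below, and the rises Os02g0465900 and Os12g0136500. Os02g0465900 (chromosome 2, 15676320 to 15679460) had an FPKM of 248 and 509 in nodal roots, 228 and 282 in S-type laterals and 533 and 501 in L-type laterals. Its salt nodal level was close to that of L-type roots, and its ratio of scaled fragments was 1.04 (0.96 to 1.12). Os12g0136500 had an FPKM of 185 and 505 in nodal, 1139.5 and 1054 in S-type laterals and 695 and 859 in L-type laterals.

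The falls showed the opposite pattern across root types. A checked gene name was at hand for 5 of the 13 falls and for 1 of the 47 rises. These names come from symbols recalled after values were seen, so their number is no result about the falls. Under control, 10 of the 13 falls were at least 2-fold lower in S-type than in nodal roots, against 14.2% of eligible genes, and 8 were at least 2-fold lower in L-type laterals, against 3.73%. Nodal roots had the highest of the 3 control values for 11 of the 13, against 35.1% of eligible genes. The order nodal above L-type above S-type held for 8 falls under control, against 25.7% of eligible genes, and for 5 under salt, against 25.5%. Under salt, 3 of the 13 were at least 2-fold lower in S-type than in nodal roots, against 11.1%, and 3 in L-type laterals, against 0.913%, and the nodal value was highest for 6, against 32.6%. The median difference of S-type minus nodal roots was -1.53 under control and -0.39 under salt, and that of L-type minus nodal was -1.26 and -0.18. These shares, too, are not independent of the rule.

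Between the lateral roots, 2 of the 13 falls were at least 2-fold higher in L-type than in S-type laterals under control, against 8.65% of eligible genes, and 2 were lower, against 8.61%. Under salt 3 were higher, against 7.26%, and 2 lower, against 8.65%, and the median difference was 0.48 under control and 0.21 under salt. The salt nodal value remained above both control lateral values for 5 of the 13 falls and was below both for 2. The matching shares of eligible genes were not counted.

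HSP81-1 (Os08g0500700, chromosome 8, 24719117 to 24723603) encodes a cytosolic chaperone of the HSP90 family, which holds signalling proteins in a foldable state. It held 6109 scaled fragments in control and 2794 in salt nodal roots, 1057 and 1032 in S-type laterals, and 1472 and 1116 in L-type laterals. Both nodal values were above all 4 lateral values. The log2 ratio was -1.13 (-1.19 to -1.07) in nodal, -0.03 (-0.17 to 0.10) in S-type laterals and -0.40 (-0.52 to -0.28) in L-type laterals. It was the most abundant member per length in control nodal roots, with an FPKM of 353 there and 161 under salt.

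Other genes of protein folding were looked up after HSP81-1 was seen among the falls. Of 15 symbols in that list 10 could be matched and 3 were eligible, and HSP81-1 was the one at least 2-fold lower in nodal roots. HSFA2C, a heat shock transcription factor, held 320 and 170.0 in nodal, 168 and 169 in S-type laterals and 264 and 134 in L-type laterals, with ratios of -0.91, 0.01 and -0.97 in that order, so it was lower in L-type laterals too. BIP1, the HSP70 chaperone of the endoplasmic reticulum, had -0.28 in nodal, 0.32 in S-type laterals and 0.29 in L-type laterals. Among genes too weak in lateral roots for the rule, HSFA2A held 53.9 scaled fragments in control and 1.66 in salt nodal roots. It held 3.86 and 0.90 in S-type laterals and 5.01 and 0.92 in L-type laterals. The small heat shock gene HSP17.4, too weak in nodal roots as well, held 27.8 and 8.29 there. It held 2.57 and 0.90 in S-type laterals and 5.01 and 3.68 in L-type laterals. Both genes were thus lower under salt in all 3 root types, at very low lateral values.

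BGLU6 (Os03g0212800, chromosome 3, 5876366 to 5883305) encodes a beta-glucosidase, an enzyme that releases sugar from glycosides. It held 775 scaled fragments in control and 372 in salt nodal roots, 47.6 and 66.6 in S-type laterals, and 125 and 144 in L-type laterals. Nodal roots were highest in both conditions, and the difference of S-type minus nodal roots was -4.00 on the log2 scale under control, the largest among the falls. The salt ratio was -1.06 (-1.23 to -0.90) in nodal roots, 0.48 in S-type laterals and 0.20 in L-type laterals, and -0.99 in nodal roots with equal library totals, short of the limit.

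Membrane carriers made up the other falls with names. ABCG42 (Os06g0554800, chromosome 6, 21113184 to 21126486), an ABC transporter of the pleiotropic drug resistance group, held 828 scaled fragments in control and 391 in salt nodal roots, 355 and 318 in S-type laterals, and 509 and 405 in L-type laterals. The salt nodal value lay within the lateral range, and the ratio was -1.08 (-1.25 to -0.92) in nodal roots, -0.16 in S-type laterals and -0.33 in L-type laterals. In FPKM it went from 36.1 to 15.1 in nodal roots, from 22.3 to 14.0 in S-type laterals and from 25.3 to 16.0 in L-type laterals, ratios of -1.26, -0.67 and -0.66, so on that scale it would not pass the lateral limit. ZIP10 (Os06g0566300, chromosome 6, 21824069 to 21826815), of the ZIP family of zinc and iron transporters, held 191 and 83.8 in nodal, 81.0 and 86.4 in S-type laterals and 51.4 and 44.1 in L-type laterals. Under salt its nodal value lay next to the S-type values, and the ratio was -1.18 (-1.54 to -0.84).

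DUR3 (Os10g0580400, chromosome 10, 23156882 to 23159586), the high-affinity urea carrier of rice roots, held 77.3 scaled fragments in control and 38.1 in salt nodal roots, 93.9 and 83.7 in S-type laterals, and 70.2 and 66.2 in L-type laterals. The control values of the 3 root types lay between 70.2 and 93.9, and the salt nodal library was below the other 5. Its ratio of -1.0005 (-1.57 to -0.49) rests on 89 and 46 fragments and lies at the limit of the rule. It fell short of that limit, and no longer passed the rule, with a pseudocount of 5 (-0.93), TMM scaling (-0.99), equal library totals (-0.94) and FPKM (-0.99).

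Among falls without a name, Os01g0840100 (chromosome 1, 36039716 to 36043151) had the largest ratio. It held 654 scaled fragments in control and 192 in salt nodal roots, 226 and 189 in S-type laterals, and 77.7 and 80.0 in L-type laterals. The control nodal library stood far above the other 5, and the salt nodal value was close to the salt S-type value. The ratio was -1.77 (-1.99 to -1.56) in nodal, -0.26 in S-type laterals and 0.04 in L-type laterals.

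Os06g0610800 (chromosome 6, 24348604 to 24354193) held 103 scaled fragments in control and 36.5 in salt nodal roots, 134 and 152 in S-type laterals, and 52.6 and 44.1 in L-type laterals. It was the other fall, beside DUR3, with a control S-type value above the nodal one, and its nodal ratio was -1.48 (-2.04 to -0.99). Os02g0224800 had -1.22, Os02g0151300 had -1.16, Os10g0554200 (its recalled symbol failed the check) had -1.06, Os07g0633400 had -1.03 and Os02g0731300 had -1.02. Os02g0285300 held 989.5 and 486 in nodal, 172 and 150.4 in S-type laterals and 276 and 383 in L-type laterals, so that nodal roots were highest in both conditions. Its ratio was -1.02 in nodal and 0.47 in L-type laterals, near the lateral limit.

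For most members the counting interval crossed a limit of the rule. The nodal interval left out 0 for all 47 rises and all 13 falls, and for 38.9% of eligible genes. For the members this was largely fixed in advance by the nodal limit and the minimum of the rule. The nodal interval lay wholly at or past 1 for 11 rises and 2 falls. In lateral roots the interval reached past 0.5 in S-type laterals for 15 rises and 11 falls, and in L-type laterals for 25 rises and 12 falls. Of the 47 rises, 31 had a nodal ratio from 1 to under 1.25, and the median was 1.17. For many members, lateral changes past the limit of 0.5 therefore lie within counting error, and a response limited to nodal roots is uncertain.

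Genes on both sides of the limits had similar values. Just inside the nodal limit were the rises Os06g0706500 with 1.002, Os07g0181700 with 1.02 and Os03g0314500 with 1.04, and the falls DUR3 with -1.0005, Os02g0731300 with -1.02 and Os02g0285300 with -1.02. Just outside it were Os07g0471900 with 0.99, Os01g0256500 with 0.98 and Os05g0433800 with 0.98, and Os03g0718000 with -0.99, Os11g0484500 with -0.97 and Os05g0159500 with -0.97. At the lateral limit, the rises Os04g0567200 (L-type 0.48), Os04g0536500 (S-type 0.48) and Os06g0724900 (L-type 0.46) and the falls Os02g0151300 (L-type -0.50), BGLU6 (S-type 0.48) and Os02g0285300 (L-type 0.47) were just inside. Os05g0438600 (L-type -0.52), Os02g0291600 (L-type 0.54) and Os08g0108700 (S-type -0.55) were just outside among genes higher in nodal roots. TIP2;1, a vacuolar water channel (S-type -0.52), Os10g0512400 (S-type -0.52) and Os11g0599200 (S-type -0.52) were just outside among those lower in nodal roots.

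The nodal ratio varied with the root type difference over all eligible genes, members included. Eligible genes were sorted by the control difference of S-type minus nodal roots. The 219 genes with S-type at least 8-fold above nodal roots had a median nodal salt ratio of 0.56, and 23.3% of them were at least 2-fold higher under salt in nodal roots. The 459 genes with a difference from 2 to under 3 had a median of 0.26, and the 4904 genes from 0 to under 1 had 0.03. At the other end, 1531 genes with a difference from -2 to under -1 had -0.15 and 48 genes below -3 had -0.38. Without the members the median of the highest class was 0.48 over 194 genes, of which 13.4% were at least 2-fold higher, and that of the class from 2 to under 3 was 0.24 over 450 genes.

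Both axes of that comparison contain the control nodal library. With the classes set in the salt libraries, where the shared value acts the other way, the median was 0.31 over 119 genes at 3 and above, 0.14 from 2 to under 3, 0.02 from 0 to under 1 and -0.10 from -2 to under -1. The order of the classes was kept there except at the low end, where 30 genes below -3 had -0.06 and 167 genes from -3 to under -2 had -0.16. The median nodal ratio was therefore higher in genes with S-type above nodal levels whichever libraries set the classes, and its size depended on them. Without members the highest salt class had 0.27 over 112 genes. With members, 12.6% of that class were at least 2-fold higher and 5.88% at least 2-fold lower in nodal roots. From 0 to under 1 these shares were 0.806% and 0.375%. Lateral medians of the highest class were -0.17 in S-type and -0.31 in L-type laterals with control classes. With salt classes they were 0.03 and -0.55.

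**Figure D3:**
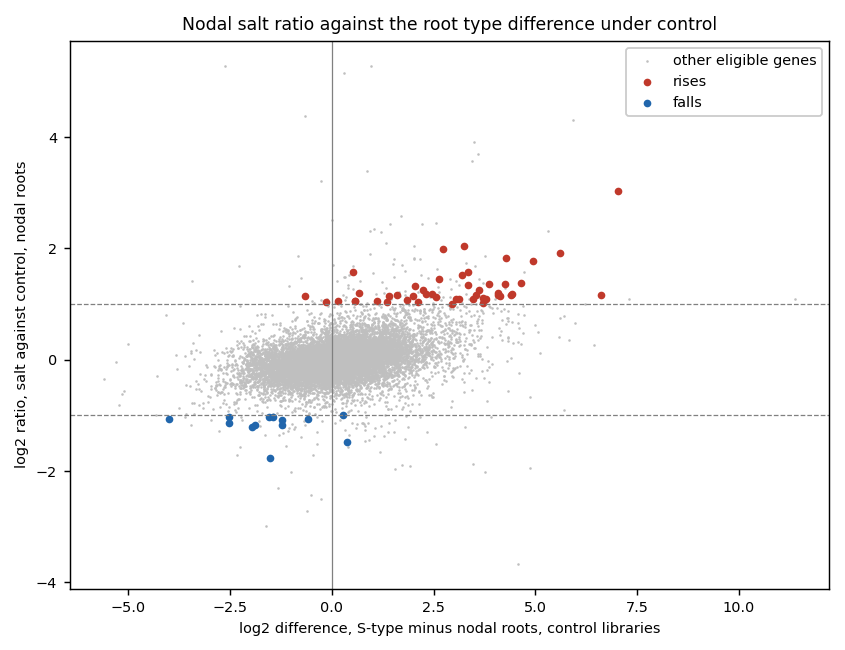
Log2 ratio of salt to control in nodal roots against the log2 difference of S-type minus nodal roots in the control libraries, for the 47 rises (red), the 13 falls (blue) and the other eligible genes (grey). Dashed lines mark the nodal limit of 1 in each direction. The rises lie mostly to the right of 0 and the falls to the left, and the control nodal library is part of both axes.

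**Figure D4:**
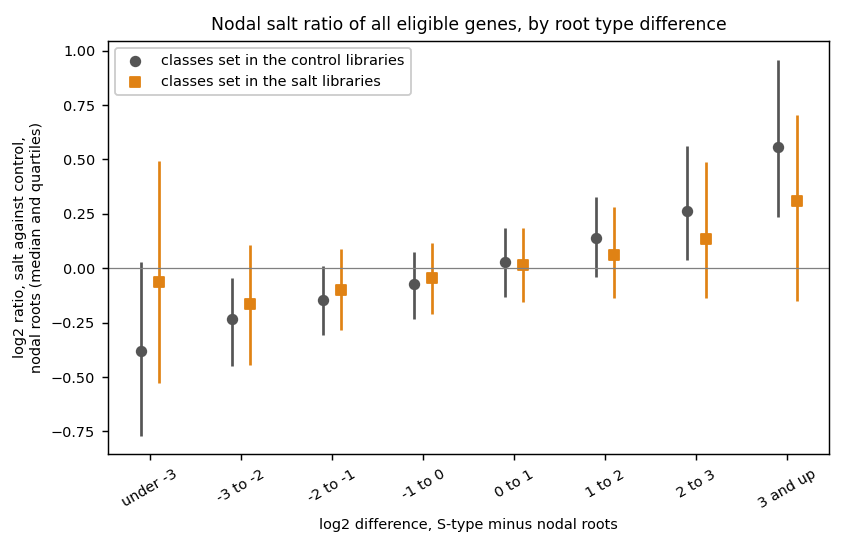
Median and quartiles of the nodal log2 salt ratio of all 13254 eligible genes in 8 classes of the log2 difference of S-type minus nodal roots, set in the control libraries (circles) or in the salt libraries (squares). The highest class has a median of 0.56 with control classes and 0.31 with salt classes.

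Between the nodal libraries, marker values of xylem, green tissue and root hairs, summed by tissue, differed more than those of endodermis and dividing cells. CESA4 and CESA7, the matched xylem and fibre markers out of 3, summed to 4434 scaled fragments in control and 3254 in salt nodal roots, to 93.9 and 103 in S-type laterals and to 583 and 860 in L-type laterals. The matched green tissue marker out of 3, CAB2R of the light-harvesting complex, held 98.2 and 17.41 in nodal roots, 2.57 and 1.80 in S-type laterals and 3.76 and 0 in L-type laterals. The 2 matched endodermis markers SHR1 and SCR1 summed to 177 and 186 in nodal, 422 and 358 in S-type laterals and 246 and 269 in L-type laterals. Their nodal log2 ratios had opposite signs, 0.23 for SHR1 and -0.14 for SCR1. The 2 matched root hair markers out of 3, EXPA17 and CSLD1, summed to 401 and 500.1 in nodal, 108 and 135 in S-type laterals and 55.1 and 79.1 in L-type laterals, with EXPA17 at 0 in control S-type roots. The nodal log2 ratio was 0.43 for EXPA17 and 0.28 for CSLD1, the latter close to that of SHR1. The mitotic markers summed to 1199.8 and 1184 in nodal roots. The part of tissue makeup in the nodal ratios was not tested.

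None of the genes with a checked symbol in the 12 pathway lists for root and salt biology was a member. Members were 60 of the 13254 eligible genes, and the lists held few eligible genes. The absence of members from the lists is therefore no result about these pathways. The fall Os10g0554200 had been entered in the nutrient uptake list under a symbol that the reference table does not hold on that chromosome, so it carries no name here and is not counted below. Of 4 eligible genes of sodium and potassium transport, 0 were at least 2-fold higher and 1 lower in nodal roots: AKT1, an inward potassium channel, had -1.51 in nodal, -0.98 in S-type laterals and -0.53 in L-type laterals. Of 12 eligible aquaporins 0 were higher and 2 lower, PIP2;4 with -1.30 in nodal roots, -2.42 in S-type and -0.80 in L-type laterals, and TIP2;1 with -1.09 in nodal roots, and the list had a nodal median of -0.43. Of 7 eligible clock genes 2 were higher, PRR1 with 1.24 and PCL1 with 4.37, and LHY was lower with -2.50. S-type and L-type laterals had 0.71 and 0.29 for PRR1, 5.58 and 6.29 for PCL1, and -3.14 and -2.17 for LHY. Of 8 eligible genes of nitrogen, phosphate and iron uptake 1 was higher, the iron transporter YSL15 with 1.58, and 1 lower, the metal transporter YSL2 with -3.66. In S-type and L-type laterals YSL15 was lower, with -2.22 and -1.23, and YSL2 had -6.05 and -6.34. The other lists had no gene past the 2-fold limit in nodal roots: 6 eligible genes of abscisic acid and dehydration, 4 of lignin and secondary wall, 5 primary wall cellulose synthases, 6 expansins, 3 genes each of sucrose use, peroxide removal and auxin with root initiation, and 3 of silicon transport.

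The silicon transporters came close to the rises. Lsi1, the silicon channel of the root exodermis and endodermis, held 3179 scaled fragments in control and 5662 in salt nodal roots, 21526 and 22198 in S-type laterals, and 8976 and 11029.8 in L-type laterals. Its nodal ratio of 0.83 (0.77 to 0.89) was below the limit of 1, with 0.04 in S-type laterals and 0.30 in L-type laterals. Lsi2, the silicon exporter that works with it, had 0.96 (0.89 to 1.03) in nodal, 0.17 in S-type laterals and 0.60 in L-type laterals. Both had nodal values below every lateral value. Lsi6, a channel of the same family, had -0.11 in nodal roots, where it was more abundant than in lateral roots.

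In the authors' deposited table, 0 of the 60 members were called as changed by salt in any root type. For nodal roots that table called 0 of 20603 tested models (0.0%), for S-type roots 14 (0.0709%) and for L-type roots 5 (0.0244%). An unadjusted p under 0.05 in nodal roots was given in the authors' deposited table to 2 rises and 1 fall, and to 39 of the eligible genes (0.294%). The authors' deposited table has a p of 0.01865 for Os01g0840100, 0.0369 for Os05g0561400 and 0.0456 for Os04g0468600, with q-values of 0.595, 0.766 and 0.821. Those p-values come from the authors' model for single libraries and use the same contrast as the rule.

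The members were spread over all 12 chromosomes. Chromosome 2 held 10 of the 47 rises (21.3%) and 4 of the 13 falls, and 12.4% of eligible genes. No members lay within 20 kb of each other. Within 200 kb there were 2 pairs, the fall Os02g0224800 with the rise Os02g0227100, 116198 bp apart with 18 gene models between them, and the rises Os02g0673100 and Os02g0671100, 140070 bp apart with 17 models between them. One rise on chromosome 11 (27683640 to 27824916) carries no gene identifier, spans 141277 bp and overlaps 16 other models, 4 of them with at least 10 scaled fragments in a nodal library. It held 23.5 and 60.5 scaled fragments in nodal roots, and its value is uncertain for that reason. The same holds for Os02g0731300, Os05g0561400, Os02g0227100, Os11g0222900, Os01g0794800, Os06g0724900, Os08g0229601, Os09g0400300 and Os07g0181700, each of which overlaps a model with at least 10 scaled fragments in a nodal library. Without these members 38 rises and 12 falls were left.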

How the data were processed

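Per the submitters' processing notes, the tools were Cuffdiff 2.2.1, Cufflinks 2.2.1, TopHat2 2.0.11, Bowtie and Trimmomatic 0.32, and the build was IRGSP-1.0; libraries were strand-specific, per the labels' protocols. The authors deposited fragment counts as a scaled signal, multiplied by a factor for each library. From 99.90% to 99.96% of values were whole fragments within a tolerance of 0.02, with 1 fragment worth 0.829 to 1.29. FPKM, p-values and q-values are from the authors' deposited table.

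Ratios are log2 of scaled values plus 1. Intervals are exact conditional binomial on recovered fragments, 95%, and fragments are not independent molecules. With 1 library per group and the rule using the same contrast, no test was run. edgeR 4.0.16 gave TMM factors only. The rule was run on simulated counts with changes larger than those of most members and with counting error only. That run does not measure how the rule performs on these members. Python 3.11.15, pandas 2.3.3, scipy 1.17.1 and R 4.3.3 were used.

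Members and lists were chosen with earlier results of these data known. Recalled symbols were kept where a RefSeq gene table of another assembly placed them at a matching position with a length ratio of 0.4 to 1.6: 95 of 121 in the lists, and 16 of 21 added after values were seen, among them the 6 members with a name. Coordinates are 1-based on IRGSP-1.0. Named members are the 12 leading rises and falls, those with a symbol, those at the limits and the 3 with the highest nodal FPKM; members named for their neighbours, overlaps or other values were chosen after their values were seen. Gene models that overlap can share fragments. Promoter sequences were not analysed here.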

Additional observations from a re-analysis of the deposited data

Results flagged for a closer look

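In 2 of the 47 rises both lateral roots moved against nodal roots, with counting intervals that left out 0 in all 3 root types. The nodal interval left out 0 for all 47 rises, largely fixed by the rule, and for 38.9% of eligible genes. The share of eligible genes with the whole pattern was not counted, so the count is no result about the rises. The difference between root types was not tested, since each group holds 1 library. Os11g0444900 had a nodal log2 ratio of 1.59 (1.12 to 2.13), with -0.33 in S-type (-0.55 to -0.11) and -0.31 in L-type roots (-0.60 to -0.03). Os09g0128400 (chromosome 9, 2181578 to 2187521) held 137 scaled fragments in control and 308 in salt nodal roots, 1619 and 1345 in S-type roots, and 884 and 718 in L-type roots. Its nodal ratio was 1.16 (0.90 to 1.45), with -0.27 in S-type (-0.38 to -0.16) and -0.30 in L-type roots (-0.45 to -0.15). Os09g0128400 lies outside the naming rule and was chosen after its values were seen.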

How the results depend on the processing

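The rule gave 47 rises and 13 falls, and the number depended mostly on its own limits. With a minimum of 20 scaled fragments it gave 81 and 38, with 100 it gave 26 and 3, and with no minimum 323 and 345. A lateral limit of 0.25 gave 12 and 5, a lateral limit of 0.75 gave 77 and 25, and a nodal limit of 1.5 gave 9 and 1. With limits on the counting intervals (nodal wholly past 0.5 and beyond both lateral intervals) it gave 133 and 66, of which 38 and 8 were among the members. Pseudocounts, scalings, FPKM and leaving out overlapping models (the last chosen after seeing the data) kept the number at 38 to 49 rises and 11 to 14 falls. With equal library totals 41 rises and 8 falls were shared with the main rule, and with FPKM 42 and 9. Equal totals moved the median nodal ratio of all eligible genes from -0.01 to 0.06.

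The median difference of S-type minus nodal roots was 3.13 for rises and -1.53 for falls in the control libraries, and 1.87 and -0.39 in the salt libraries. That of L-type minus nodal roots was 2.17 and -1.26 under control, and 1.05 and -0.18 under salt. No direction was reversed. Of the 60 members, the nodal ratio left its counting interval for HSP81-1 (-1.06) and Os12g0136500 (1.52) with equal totals and for ABCG42 (-1.26) and Os01g0566100 (0.76) with FPKM. Under these scalings and pseudocounts, members that no longer passed the rule included CIN5 with a pseudocount of 5, BGLU6, Os04g0468600, Os04g0536500, Os07g0633400 and Os02g0285300 with equal totals, ABCG42 with FPKM, Os02g0151300 with a pseudocount of 0.5, TMM and FPKM, Os02g0731300 with a pseudocount of 5, equal totals and FPKM, and DUR3 with a pseudocount of 5, TMM, equal totals and FPKM. The cause was not tested. No paired analysis was possible because each group holds 1 library, and for the same reason a count test could not be fitted to the nodal pair. Promoter motifs were planned and not run, as no promoter sequence was at hand. Counting error at 9.56 to 51.3 scaled fragments in control nodal roots limits the ratios of the weaker rises.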
